A study of Mus musculus with 6 samples.

Results

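The 71 genes described here encode proteins of the mitochondrial ribosome, 43 of the large subunit and 28 of the small subunit, out of 22180 mouse genes measured. They are all genes with a symbol of Mrpl or Mrps and a number on an array feature (transcript cluster) that carries that symbol alone, pseudogenes left out. Where a gene had several transcript clusters, the brightest cluster on average was used. Symbols follow GEO's platform annotation, and a further 7 such genes lay only on clusters shared with another symbol and were not analysed here (Mrpl30, Mrpl33, Mrpl41, Mrpl43, Mrpl44, Mrpl53 and Mrps6).

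RNA came from myeloid cells of mouse fetal liver cultured with 1 ng/ml GM-CSF, a growth factor for granulocytes and macrophages, and was hybridised to Affymetrix Mouse Gene 2.0 ST arrays, 1 per sample. The 3 uninduced samples (A, B and C) received no doxycycline, and the 3 induced samples (A, B and C) received 1000 ng/ml for 72 hours to express PU.1, the ETS-family factor encoded by Spi1. The labels give neither the construct nor its promoter, do not say whether the cells are a clone, and do not say that the samples were separate cultures, so p-values reflect only how these samples scatter, possibly for technical reasons. No group received doxycycline without PU.1 induction, so effects of the drug and of PU.1 cannot be told apart.

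The mitochondrial ribosome translates the few messenger RNAs of the mitochondrial genome, all of which encode subunits of the respiratory chain and ATP synthase. All of its proteins are made from nuclear genes and imported, while its ribosomal RNAs come from the mitochondrial genome. Some of its proteins have counterparts in bacterial ribosomes and others are found only in mitochondria, and doxycycline, a tetracycline that blocks bacterial translation, can also inhibit translation in mitochondria.

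Promoter sequence is shown for some of the genes named below, because nuclear genes of mitochondria are known targets of NRF1, of ETS-family factors such as GABP and of YY1, and PU.1 itself binds ETS-type sites. Each sequence is the 150 bases before the start used for the gene's RefSeq promoter window (GRCm38.p6), on the gene's strand, 5′ to 3′. That start can differ from the gene bounds given below. The Mrpl45 and Mrps10 sequences lie wholly inside those bounds, and the Mrpl27 sequence runs past its lower bound. Capitals mark matches, on either strand, to the NRF1 motif (GCGCA and GCGC with any 1 base between them), the ETS motif CCGGAAG or the PU.1-type motif GAGGAAGT. Mrpl32 (chr13:14613038-14613187, minus strand) had the lowest measured change, Mrpl45 (chr11:97315566-97315715, plus strand) the lowest adjusted p, and Mrpl39 (chr16:84735245-84735394, minus strand) was among the brightest clusters. All of them held the NRF1 motif, as did 11 of the 62 members with a promoter window. Mrpl42 and Mrpl49, also among the lowest changes, and Mrpl10, with a brighter cluster than Mrpl39, are not shown.
Mrpl32: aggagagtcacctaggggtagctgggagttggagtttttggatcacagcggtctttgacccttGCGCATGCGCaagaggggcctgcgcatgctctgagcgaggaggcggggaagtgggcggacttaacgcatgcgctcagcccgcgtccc
Mrpl45: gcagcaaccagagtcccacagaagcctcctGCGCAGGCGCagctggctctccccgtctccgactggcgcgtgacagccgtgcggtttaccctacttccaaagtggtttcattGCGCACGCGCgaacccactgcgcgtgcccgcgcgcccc
Mrpl39: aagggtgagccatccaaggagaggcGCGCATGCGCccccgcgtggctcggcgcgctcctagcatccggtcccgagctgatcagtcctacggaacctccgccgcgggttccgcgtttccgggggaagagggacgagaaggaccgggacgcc
Mrpl34 (chr8:71464776-71464925, plus strand) had the brightest cluster of all 71, and Mrpl27 (chr11:94653641-94653790, plus strand) the highest measured change. Both held the ETS motif.
Mrpl34: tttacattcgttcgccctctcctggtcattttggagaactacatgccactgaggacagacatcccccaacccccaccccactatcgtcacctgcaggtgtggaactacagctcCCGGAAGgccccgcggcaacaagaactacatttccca
Mrpl27: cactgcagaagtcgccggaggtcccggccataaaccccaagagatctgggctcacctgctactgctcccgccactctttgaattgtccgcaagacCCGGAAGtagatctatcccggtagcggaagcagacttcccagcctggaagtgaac
Mrps10 (chr17:47369047-47369196, plus strand) was the only member with the PU.1-type motif among the 62 with a promoter window.
Mrps10: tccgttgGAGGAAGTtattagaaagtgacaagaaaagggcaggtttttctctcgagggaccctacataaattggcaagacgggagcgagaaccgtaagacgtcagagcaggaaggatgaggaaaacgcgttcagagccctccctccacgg
Mrpl46 and Mrps11 lie head to head on chromosome 7. The 41 bases between their RefSeq gene bounds (chr7:78783090-78783130, plus strand) are shown because a large and a small subunit gene meet there. No motif was found in them.
Mrpl46 to Mrps11: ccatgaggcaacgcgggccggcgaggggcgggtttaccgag

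RefSeq promoter windows, from 250 bases before to 50 after the start, were found for 62 of the 71 members. The ETS motif was in 23 of them (37.1%, against 12.9% of 17491 protein-coding genes), the NRF1 motif in 11 (17.7% against 7.17%) and the YY1 motif AAGATGGC in 12 (19.4% against 3.57%). The PU.1-type motif was in 1 (1.61% against 3.64%). Over all 27025 genes with a window the shares were 9.93% for ETS, 5.19% for NRF1, 3.19% for YY1 and 3.69% for the PU.1-type motif. A motif was found in 39 members and none of the 4 in 23. Letters that match a motif describe the sequence and do not show binding. The median log2 difference between the groups was -0.37 in the 11 members with the NRF1 motif and -0.41 in the 51 without, -0.33 in the 23 with the ETS motif and -0.42 in the 39 without, and -0.41 in the 12 with the YY1 motif and -0.39 in the 50 without.

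All levels are log2 values as deposited, and levels of different clusters are not read as relative amounts of RNA. They were set side by side for brightness ranks, the background limit and the subunit medians of each array. The arrays were not on a common distribution. The interquartile range over all genes, in the order A, B and C kept for all values below, was 2.31, 2.76 and 2.41 on the uninduced and 2.29, 1.88 and 1.93 on the induced arrays, so the spread of values was widest in uninduced B and narrowest in induced B and C. Array medians were between 6.79 and 7.01, and pairs of arrays correlated across genes with r between 0.942 and 0.991. A value was taken as in the range of background when it lay below the 95th percentile of 1390 olfactory and vomeronasal receptor genes on that array, which was 7.37, 7.05 and 7.34 in the uninduced arrays and 7.39, 7.99 and 7.86 in the induced ones. Spi1 was at 8.80, 8.65 and 8.84 in uninduced cells and 9.13, 9.04 and 9.05 in induced cells (difference 0.31, limma adjusted p = 0.152). Of 12 myeloid markers 9 were above background on all 6 arrays, and Cd68, Lyz2, Mpo and Ptprc rose (adjusted p under 0.05), although 3 others had differences below 0 that did not pass (Cebpa -0.40, Csf2rb -0.09, Ctsg -0.04) and Ptprc, the pan-leukocyte antigen CD45, stayed in the background range on every array. The calls of Mpo and Ptprc were lost without uninduced B (adjusted p = 0.0549 and 0.0525), that of Mpo also without uninduced A (0.056) or induced C (0.052), and that of Ptprc under cyclic loess (0.0656), quantile normalization (0.0611) and median centring (0.0511). Of 30 measured markers of 8 other cell types, 25 were in that range on all 6 arrays and 0 passed the test, with per-array medians of 6.35 to 6.49 in uninduced and 6.48 to 6.58 in induced cells. The markers above it on at least 1 array were Apoa1, Pax5, Kdr, Mcpt8 and Kit, and their part in the results was not tested.

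Most mitochondrial ribosomal protein transcripts had lower measured values in induced cells, but no single gene passed the test. Of the 71 members, 69 had a mean below that of uninduced cells, with a median log2 difference of -0.41, where 44% of all 22180 genes were below 0 and the median was 0.06. Among 9 dimmer clusters not used, those of Mrpl10, Mrpl12, Mrpl36, Mrps5 and Mrps18c had differences above 0. These ran from 0.03 to 0.13, at mean levels of 6.02 to 7.28, and the other dimmer clusters were below 0. With the mean of a gene's clusters, 69 members were also below 0. At a limma adjusted p under 0.05, 0 members were higher and 0 lower, against 0.374% and 1.05% of all genes called higher and lower. The smallest adjusted p-values were 0.0586 for Mrpl45 and 0.0601 for Mrpl32. At an unadjusted p under 0.05, 38 members were lower and 0 higher, against a background of 16.9% of genes lower, and all 3 induced values lay below all 3 uninduced values in 24 members, or 33.8%, where the background was 15.4%. Among the brightest 30% of genes, where most members lay, those background shares were 42.7% and 35.5%, so the members' non-overlapping share was near that of other bright genes. In bulk RNA, fewer cells of a type and less RNA per cell cannot be told apart.

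The difference was carried unequally by the arrays. Against the uninduced mean, the median member of induced A, B and C was at -0.12, -0.60 and -0.51. Uninduced B held the highest of the 6 values in 58 of 71 members (81.7%, against 32.5% of all genes and 72.9% of the brightest 30%). The lowest was in induced B for 43 and in induced C for 24. Induced B or C thus held it in 94.4% of members, against 39.1% of all genes and 86.5% of the brightest 30%. Without induced A, 41 members were lower at an adjusted p under 0.05, where 15.9% of all genes were. Without any other single array 0 were, and without uninduced B the median was -0.28.

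The same arrays that were low for these genes were also the arrays with the narrowest spread, and genes with bright clusters in general were lower in induced cells. With all genes divided into deciles by mean level, the median log2 difference ran from 0.12 to 0.20 in the 6 dimmest deciles and from -0.12 to -0.37 in the 4 brightest. Of the 71 members 50 were in the brightest 30% of genes, where the median difference was -0.34 and 89.7% of all 6654 genes were below 0. Those 50 members had a median of -0.44, and 56 of the 71 lay below the median of their own decile, where 11090 of all 22180 genes do. After cyclic loess, which removes differences that follow the level, the median member was at -0.19 with 59 of 71 below 0, the median of all genes was 0.00, and 0 members passed (smallest adjusted p = 0.107). The part of the narrower spread in the members' difference as deposited was not tested further.

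**Figure D1:**
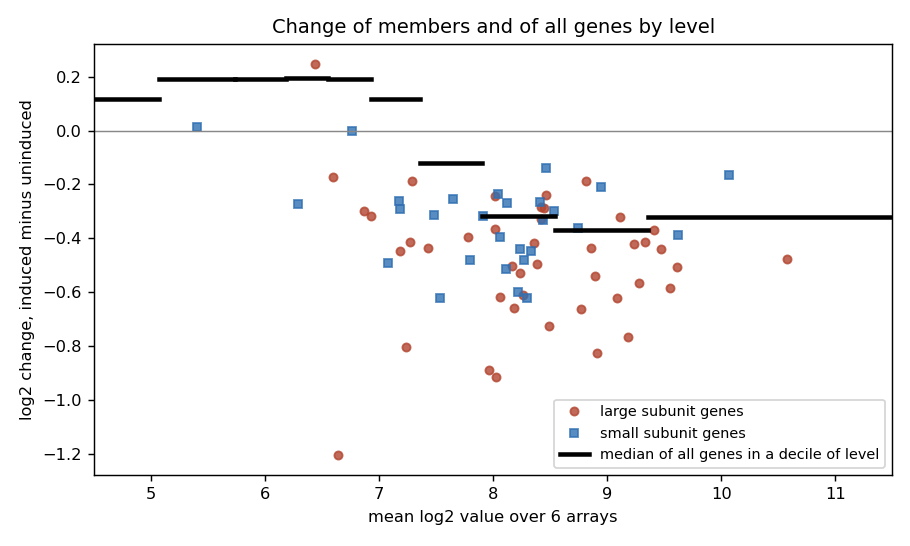
Log2 difference, induced minus uninduced, of each large (circles) and small (squares) subunit gene against its mean log2 value over 6 arrays; black bars give the median difference of all genes in each decile of level. The bars fall from 0.12 or above on the left to -0.32 or below in the 3 brightest deciles, and 56 of the 71 members lie below the bar of their own decile.

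The median log2 difference was -0.44 for large subunit genes (interquartile range -0.61 to -0.33, from -1.21 to 0.25) and -0.32 for small subunit genes (-0.46 to -0.26, from -0.62 to 0.01). The gap between these medians was -0.12. On each array, the median level of the large subunit clusters minus that of the small subunit clusters was 0.23, 0.44 and 0.16 in uninduced and 0.30, 0.25 and 0.08 in induced cells. The groups overlapped in this measure, and their means differed by -0.06 with a within-group SD of 0.129 (n = 3 arrays a group). The gap of -0.12 comes from per-gene differences, so this SD is not its error. Whether that gap exceeds the scatter between arrays was not tested. After cyclic loess it was 0.23, 0.37 and 0.15 in uninduced and 0.29, 0.32 and 0.07 in induced cells, again with overlap. With each gene set relative to its own uninduced mean, the median shifts of large and small subunit genes were -0.16 and -0.05 in induced A, -0.64 and -0.52 in induced B and -0.57 and -0.43 in induced C. In uninduced A, B and C they were -0.14, 0.24 and -0.12 for large and -0.12, 0.20 and -0.12 for small subunit genes. Such shifts average 0 over the uninduced arrays for each gene by construction, so their spread is not a measure of error for the gap.

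At an unadjusted p under 0.05, 28 of 43 large subunit genes (65.1%) and 10 of 28 small subunit genes (35.7%) were lower. The groups did not overlap in 21 large subunit genes (48.8%) and 3 small subunit genes (10.7%), all with the induced values below. The shares over all genes were 16.9% and 15.4%, and over the brightest 30% of genes 42.7% and 35.5%, so the small subunit's shares were below those of bright genes in both counts. Among the brightest 30% of genes the medians were -0.50 for 32 large and -0.35 for 18 small subunit genes. After cyclic loess the median differences were -0.21 for large and -0.16 for small subunit genes. No p-value is given for the gap, since genes are not replicates.

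**Figure D2:**
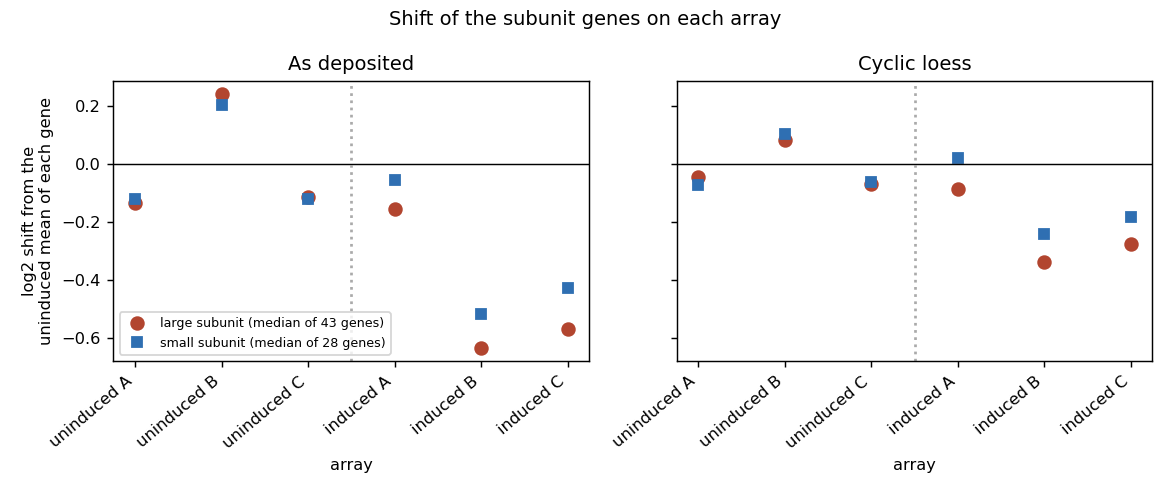
Median shift of large and small subunit genes from the uninduced mean on each array (log2), as deposited and after cyclic loess. The large subunit lies below the small subunit on all 3 induced arrays in both panels. Each gene averages 0 over the uninduced arrays by construction, but single uninduced arrays do not lie at 0. As deposited, uninduced B is at 0.24 (large) and 0.20 (small), and induced A at -0.16 and -0.05. The plain difference of the subunit medians overlapped between the groups.

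Several proteins named for the small subunit are placed elsewhere in structures of the mammalian ribosome: Mrps18a and Mrps30 sit in the large subunit, and Mrps36 is now assigned to the 2-oxoglutarate dehydrogenase complex. With that placement the small subunit median was -0.32 and the gap -0.12. By descent, 42 members with a bacterial counterpart had a median log2 difference of -0.37 and 27 classed as mitochondria-specific -0.45; the latter include Mrps18a and Mrps18b, paralogues of Mrps18c, which was classed as the bacterial counterpart. Within the large subunit the medians were -0.42 (28 genes) and -0.57 (15 genes), and within the small subunit -0.29 (14 genes) and -0.42 (12 genes). These classes were written after values were seen and have no test.

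Among large subunit genes, the lowest measured differences were those of Mrpl32, Mrpl42, Mrpl45 and Mrpl49. Mrpl45 (chromosome 11, 97314923 to 97329920 in mm10) encodes a protein that ties the ribosome to the inner mitochondrial membrane near the exit tunnel. Its values were 8.35, 8.48 and 8.39 in uninduced and 8.0, 7.14 and 7.41 in induced cells. All 3 induced values were below the uninduced ones, which lay close together, giving a difference of -0.89 (SE 0.20, limma adjusted p = 0.0586), with induced B and C in the background range.

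Mrpl32 (chromosome 13, 14610301 to 14613037) encodes a protein that the m-AAA protease must process before it joins the ribosome. It was at 6.84, 7.84 and 7.03 in uninduced cells and 6.45, 5.59 and 6.05 in induced cells (difference -1.21, SE 0.27, limma adjusted p = 0.0601). The groups did not overlap, but only uninduced B was above background, so no fold is given. Mrpl42 (chromosome 10, 95480805 to 95501949), a protein found only in mitochondrial ribosomes, was at 8.32, 8.88 and 8.25 and then 8.34, 6.83 and 7.52. Induced A lay among the uninduced values, and induced B and C were in the background range (difference -0.92, SE 0.32, limma adjusted p = 0.13). Mrpl49 (chromosome 19, 6053630 to 6057755), also specific to mitochondria, was at 9.18, 9.54 and 9.26 and then 9.17, 7.75 and 8.58. Induced A was again near the uninduced arrays, just below the lowest of them (difference -0.83, SE 0.29, limma adjusted p = 0.13). Its induced B value was in the background range.

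The brightest large subunit clusters were those of Mrpl34, Mrpl10 and Mrpl39. Mrpl34 (chromosome 8, 71464926 to 71465753) was at 10.56, 11.04 and 10.84 in uninduced and 10.53, 10.01 and 10.48 in induced cells (difference -0.48, SE 0.18, limma adjusted p = 0.139). Mrpl39 (chromosome 16, 84718281 to 84735244) was at 9.78, 10.05 and 9.68 and then 9.63, 9.02 and 9.12 (difference -0.58, SE 0.18, adjusted p = 0.115). Mrpl10 (chromosome 11, 97041582 to 97049213), a protein of the ribosomal stalk, was at 9.71, 10.13 and 9.75 and then 9.64, 9.23 and 9.20 (difference -0.51, SE 0.17, adjusted p = 0.124). In all of them the induced values lay below the uninduced ones without overlap, as in 35.5% of the brightest 30% of genes, and all values were above background. After cyclic loess the differences were -0.15 for Mrpl34, -0.21 for Mrpl39 and -0.14 for Mrpl10. A second, dimmer cluster of Mrpl10 had a difference of 0.12 in place of -0.51, so the clusters of this gene disagree in sign. Mrpl12 (chromosome 11, 120484637 to 120488754), a stalk protein that also binds the mitochondrial RNA polymerase, was at 8.62, 8.75 and 8.41 and then 8.79, 8.08 and 8.05. Induced A had the highest value of all 6 (difference -0.29, SE 0.20, limma adjusted p = 0.319), and a dimmer cluster of Mrpl12 had a difference of 0.13.

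**Figure D3:**
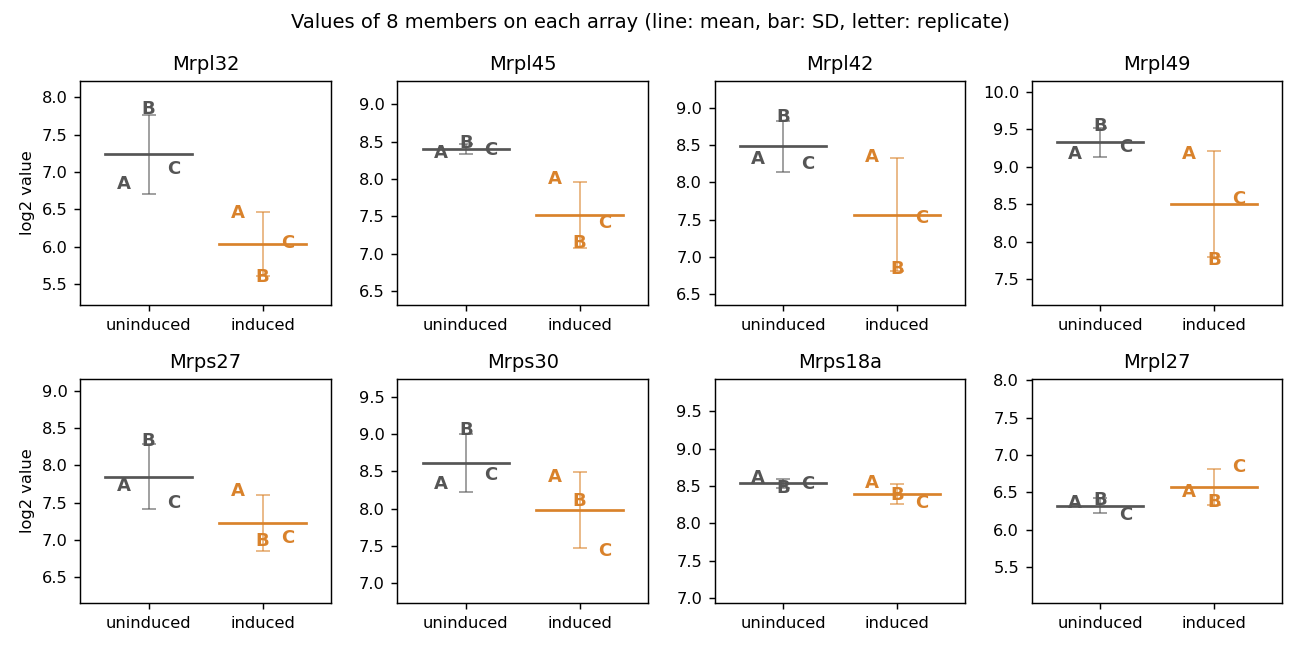
Log2 values of 8 members on each array, with letters for the replicates A, B and C, a line for the group mean and a bar for the SD (n = 3 a group); every panel spans the same range on the log2 scale. Induced A lies closest to the uninduced values in Mrpl42, Mrpl45 and Mrpl49, and Mrps18a and Mrpl27 show little separation.

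At the upper end, Mrpl27 (chromosome 11, 94653770 to 94661932) had the only measured difference above 0 in the large subunit. It was at 6.36, 6.39 and 6.20 in uninduced and 6.50, 6.36 and 6.84 in induced cells, all in the background range (difference 0.25, SE 0.15, limma adjusted p = 0.266). Mrpl22 (chromosome 11, 58170043 to 58179580), which lines the exit tunnel, was at 6.44, 7.11 and 6.50 and then 6.60, 6.46 and 6.47. Only uninduced B was above background and stood apart from the other 5 values (difference -0.17, SE 0.18, adjusted p = 0.491). Mrpl48 (chromosome 7, 100545779 to 100608301) was at 7.36, 7.36 and 7.43 and then 7.33, 7.17 and 7.09, with the induced values all lower and in the background range (difference -0.19, SE 0.13, adjusted p = 0.311). Mrpl55 (chromosome 11, 59202486 to 59206138) was at 8.79, 9.09 and 8.84 and then 8.68, 8.70 and 8.78, a narrow gap without overlap (difference -0.19, SE 0.13, adjusted p = 0.325), which turned to 0.16 after cyclic loess.

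**Figure D4:**
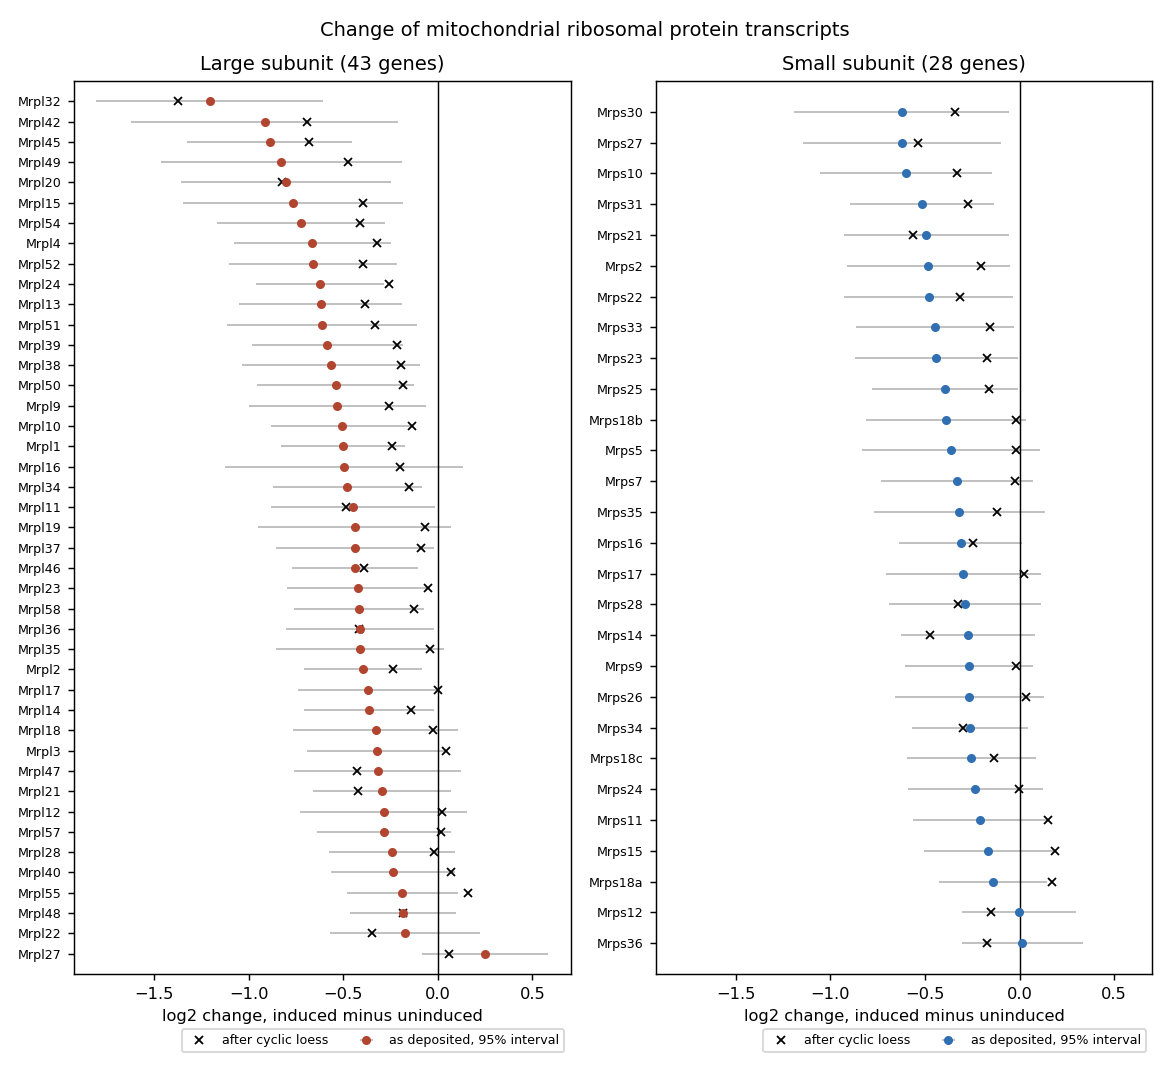
Log2 difference of each member, induced minus uninduced, with its 95% interval (not adjusted for the number of genes) and, as crosses, the value after cyclic loess. Of the 71 points as deposited, 69 lie below 0.

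Small subunit genes spanned a narrower range. Mrps30 (chromosome 13, 118380110 to 118387252) was at 8.32, 9.05 and 8.44 in uninduced and 8.42, 8.10 and 7.43 in induced cells (difference -0.62, SE 0.26, limma adjusted p = 0.157). Mrps27 (chromosome 13, 99344767 to 99415562), an RNA-binding protein with pentatricopeptide repeats, was at 7.72, 8.33 and 7.49 and then 7.66, 6.99 and 7.03 (difference -0.62, SE 0.24, adjusted p = 0.142). In both genes induced A lay among the uninduced values, so the groups overlapped. Induced C was in the background range in both, and induced B in Mrps27 only. Mrps10 (chromosome 17, 47368887 to 47381418), the gene with the PU.1-type motif, was at 8.30, 8.79 and 8.45 and then 8.36, 7.57 and 7.81, with the same overlap (difference -0.60, SE 0.21, adjusted p = 0.127). Mrps31 (chromosome 8, 22410449 to 22429669) was at 8.21, 8.67 and 8.22 and then 8.08, 7.62 and 7.85 (difference -0.52, SE 0.17, adjusted p = 0.124). Its induced values were all below the uninduced ones. In Mrps10 and Mrps31 induced B and C were in the background range.

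The brightest small subunit clusters were those of Mrps15, Mrps18b and Mrps11. Mrps15 (chromosome 4, 126046928 to 126055536) was at 10.12, 10.24 and 10.08 in uninduced and 10.27, 9.75 and 9.92 in induced cells, with induced A the highest of all 6 (difference -0.17, SE 0.15, limma adjusted p = 0.439). Mrps11 (chromosome 7, 78783131 to 78792988) was at 8.94, 9.15 and 9.07 and then 9.10, 8.53 and 8.90 (difference -0.21, SE 0.16, adjusted p = 0.36). Both turned positive after cyclic loess, at 0.19 for Mrps15 and 0.15 for Mrps11. Its head-to-head neighbour Mrpl46 (chromosome 7, 78775341 to 78783089) had a difference of -0.44 as deposited and -0.39 after cyclic loess.

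Mrps18a, Mrps18b and Mrps18c are paralogues of a bacterial small subunit protein. Mrps18a (chromosome 17, 46111004 to 46128908) was at 8.60, 8.48 and 8.52 in uninduced and 8.53, 8.38 and 8.27 in induced cells (difference -0.14, SE 0.13, limma adjusted p = 0.441). Mrps18b (chromosome 17, 35910380 to 35916440) was at 9.56, 10.25 and 9.63 and then 9.63, 9.33 and 9.31 (difference -0.39, SE 0.19, adjusted p = 0.197). Mrps18c (chromosome 5, 100798759 to 100804467) was at 7.87, 7.68 and 7.79 and then 7.81, 7.29 and 7.48 (difference -0.25, SE 0.15, adjusted p = 0.267). The groups overlapped in all of these paralogues, and induced B and C of Mrps18c were in the background range. A dimmer cluster was at -0.54 for Mrps18b and at 0.12 for Mrps18c, the opposite sign of the cluster used.

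Mrps12 and Mrps36 were in the background range on all 6 arrays, so no fold is given for either. Mrps12 (chromosome 7, 28739641 to 28741821), whose protein lies beside the decoding centre, was at 6.70, 6.79 and 6.79 in uninduced and 6.72, 6.60 and 6.96 in induced cells (difference 0.00, SE 0.14). Mrps36 (chromosome 13, 100735940 to 100744659) was at 5.23, 5.44 and 5.52 and then 5.25, 5.60 and 5.38 (difference 0.01, SE 0.14). In both, the values of the 2 groups were mixed. Over all 71 members, 27 were above background on all 6 arrays and 4 on none (Mrpl27, Mrps12, Mrps14 and Mrps36). A further 12 were in the background range on all 3 induced arrays and above it on at least 1 uninduced array, as were 1505 of all 22180 genes. The reverse held for 0 members and 101 genes. The background limit was itself higher on induced B and C (7.99 and 7.86) than on the uninduced arrays (7.05 to 7.37).

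Other nuclear genes of mitochondrial translation were also lower as measured, and none passed the test. Of 14 measured translation factors of 17 listed, 13 were below 0, with a median log2 difference of -0.45 (-0.27 after cyclic loess). Tufm, the mitochondrial elongation factor Tu, was at 10.59, 10.61 and 10.50 in uninduced and 10.35, 9.84 and 9.60 in induced cells, without overlap (difference -0.64, SE 0.18, limma adjusted p = 0.103). Among 19 measured aminoacyl-tRNA synthetase genes, counting subunits of the glutamyl-tRNA amidotransferase, all were below 0 (median -0.26, and -0.10 after cyclic loess), and among 24 genes of ribosome assembly and rRNA modification 21 were (median -0.29 and -0.17). Over all genes 44% were below 0. Over the brightest 30% of genes 89.7% were (median -0.34, and -0.01 after cyclic loess). The mitoribosomal proteins with other symbols, Dap3, Ptcd3 and Gadd45gip1, had differences of -0.73, -0.56 and -0.30. For the 79 nuclear genes of the respiratory chain and ATP synthase the median was -0.29 and -0.01 after cyclic loess. Of these, Cox7a1, a cytochrome oxidase subunit of muscle and heart, fell (7.39, 7.53 and 7.56 against 6.69, 6.88 and 6.51, limma adjusted p = 0.0207), its induced values in the background range. This call was lost without any 1 of uninduced A, B and C and induced C (adjusted p from 0.0668 to 0.121) and held without induced A or B. For the 68 cytoplasmic ribosomal protein genes the median was -0.15 and 0.02 after cyclic loess, with 0 called at an adjusted p under 0.05. At an unadjusted limma p under 0.05, 10 were lower (14.7%, near the 16.9% of all genes). Another 2 were higher, where 2538 of all 22180 genes were.

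The transcripts of the mitochondrial genome itself, which the mitochondrial ribosome translates, had the opposite sign. All 10 measured, of 15 listed, had a higher mean in induced cells, with log2 differences from 0.16 to 0.31 (median 0.24). However, none passed the test (limma adjusted p from 0.173 to 0.356). At an unadjusted limma p under 0.05, 1 of 10 was higher, where 2538 of all 22180 genes were. In 9 of 10 the 3 induced values lay above the 3 uninduced values, against 16% of all genes. COX1, a cytochrome oxidase subunit, was at 13.45, 13.39 and 13.56 in uninduced and 13.58, 13.64 and 13.74 in induced cells. ND4, a subunit of respiratory complex I, was at 13.45, 13.39 and 13.52 and then 13.59, 13.60 and 13.64. Both were higher on every induced array, by narrow margins. Their levels were near the highest value deposited, 14.03. At similar levels, the nuclear genes Rps6, Rpl41 and Atp5b had differences of 0.07, 0.08 and -0.13. The part of level in the opposite sign was not tested. Many of these transcripts are cut from common precursors, so they are not independent of each other. Under quantile normalization 2 of the 10 were below 0. The difference between mitochondrial and nuclear transcripts was not tested.

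**Figure D5:**
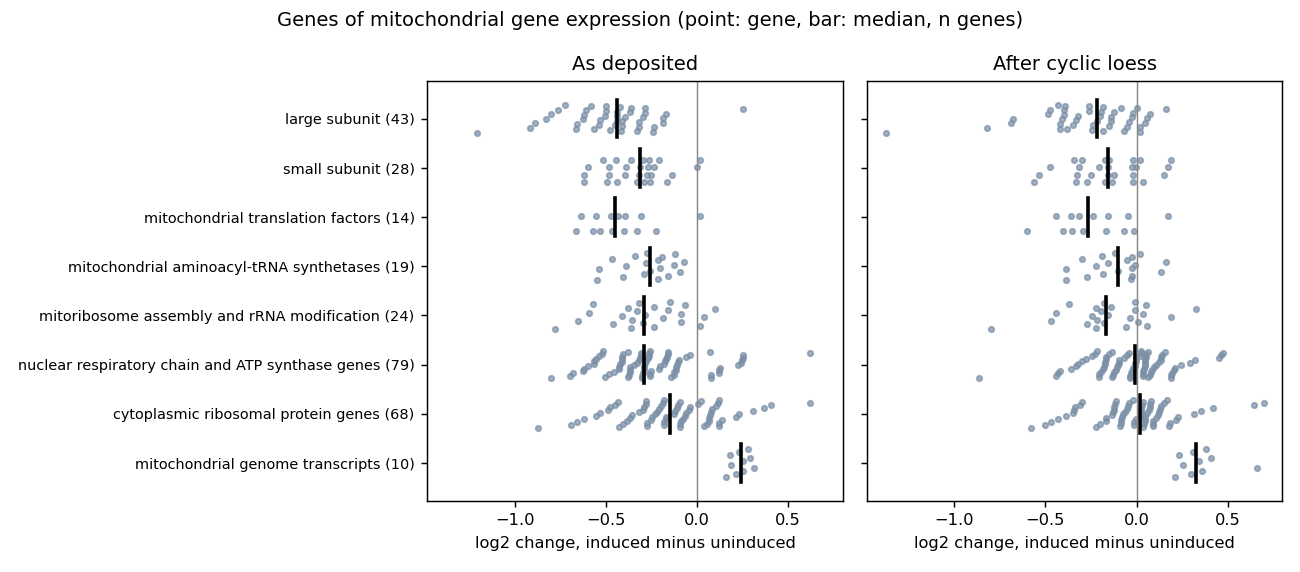
Log2 difference between induced and uninduced cells for the mitochondrial ribosomal protein genes and related gene lists, with each gene as a point and the median of each list marked, as deposited and after cyclic loess. Transcripts of the mitochondrial genome lie above 0 and most genes of mitochondrial translation below it.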

How the data were processed

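Per the submitters' processing notes, the authors used Partek software and the mouse build mm10; its version and the steps from scanner signal to value (background, normalization, summary) are not stated in the sources used here. The deposited table holds 41345 transcript clusters on 6 arrays, read as log2 values because they run from 2.86 to 14.03. GEO's platform annotation, possibly outdated, gave the names: 23521 clusters carried 1 symbol, 1814 several and 16010 were not listed, which left 22180 genes at 1 cluster per gene (highest mean).

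The groups (3 samples each, by title) entered a two-sided limma test (version 3.58.1, R 4.3.3) without covariates or filters, with Benjamini-Hochberg adjustment over all 22180 genes at 0.05. The script was tested on simulated data. Differences are induced minus uninduced. The number of arrays limits the precision. No label says that the letters A to C pair the samples, and the test did not pair them. Deviations of same-letter samples from their group means correlated at -0.31, -0.28 and 0.42. This cannot settle pairing, because the arrays also differ in spread.

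Named in full were the 4 members of each subunit with the highest and the 4 with the lowest measured difference, the 3 brightest of each, and Mrpl12, Mrps12, Mrps18a, Mrps18b, Mrps18c, Mrps30 and Mrps36. From the other lists, members past the threshold or some of the 2 brightest were named. Dap3, Ptcd3, Gadd45gip1, Mrpl46, Mrpl36 and Mrps5 were named after their values were seen. The members and lists were chosen with earlier results of these data known, and the bacterial and mitochondrial classes after values were seen. Background and promoter rules are given with the results. Alternatives were quantile normalization, median centring, cyclic loess, the letter as a block, filters on dim genes, a variance trend with robust moderation, array weights, the mean of a gene's clusters, a stricter threshold, another subunit placement and leaving out each array; leaving out uninduced B and induced A together was added after seeing the data.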

Additional observations from a re-analysis of the deposited data

How the results depend on the processing

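As deposited, 0 members were lower and 0 higher at a limma adjusted p under 0.05. The count lower was 2 with the letter as a replicate block (Mrpl32 and Mrpl45, smallest adjusted p = 0.0146; 425 genes, 1.92%, lower and 174 higher in all, against 232, 1.05%, and 83), 2 without genes below the 25th percentile of level (2% of all genes tested), 1 without those below the 50th (3.04%), 1 with a variance trend and robust moderation (1.02%), 33 without uninduced B and induced A (11.6%), and 0 to 41 leaving out each array in turn (15.9% of all genes without induced A, which gave the 41). The letters are not known to mark a shared culture. Of the same-letter pairs only the C arrays deviated together (r = 0.42), while uninduced B and induced A did so at r = 0.52. Array weights, which gave 5681 genes (25.6%) lower and 5825 higher in all, called 52 members lower and 1 higher (Mrpl27). They rested mostly on the C arrays, with weights of 4.6 and 3.46 against at most 0.932 for the others. Quantile normalization, median centring and cyclic loess called 0 members, as did an adjusted p of 0.01 and the mean of a gene's clusters.

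The subunit medians were below 0 in every setting in which they were computed (all but the filters and the variance trend), from -0.60 to -0.32 for the large and from -0.47 to -0.22 for the small subunit without 1 array. The gap between them, -0.12 as deposited, was -0.14 to -0.10 without 1 array, -0.0617 under quantile normalization, -0.0564 after cyclic loess, -0.0642 with array weights, -0.16 with the mean of a gene's clusters and -0.0924 without uninduced B and induced A. The within-group SD of 0.129 belongs to the per-array difference of the subunit medians and is not an error of this gap. Of the named members, some turned sign. Under quantile normalization Mrpl55 was at 0.15, Mrps15 at 0.16, Mrps18a at 0.17, Mrps11 at 0.13 and Mrps36 at -0.18. After cyclic loess Mrpl55 was at 0.16, Mrps15 at 0.19, Mrps18a at 0.17, Mrps11 at 0.15, Mrpl12 at 0.0203 and Mrps36 at -0.17. Mrps36 was at -0.10 after median centring and -0.0676 with array weights, and Mrps12 was at 0.11 with array weights and 0.0318 without uninduced B and induced A. Leaving out 1 array gave -0.0802 to 0.0953 for Mrps36, -0.293 to 0.0417 for Mrpl22 and -0.10 to 0.0782 for Mrps12. The cause of these reversals was not tested. Signal close to the background limits 16 members that were in that range on all 3 induced arrays.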

Other observations

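Nuclear genes that maintain and transcribe mitochondrial DNA included 1 that passed the test. Lonp1, the main protease of the mitochondrial matrix, fell, from 9.88, 9.84 and 9.51 in uninduced A, B and C to 9.12, 8.53 and 8.16 in induced A, B and C (log2 difference -1.14, limma adjusted p = 0.034). Its groups did not overlap, but the call was lost after cyclic loess (adjusted p = 0.09), quantile normalization (0.0921) and median centring (0.0743), and without any 1 of uninduced A, uninduced B, induced B and induced C (0.117 to 0.137). The 11 genes of that list had a median of -0.31, with 9 below 0, against 44% of all genes and 89.7% of the brightest 30%. Tfb2m, a transcription factor of mitochondrial DNA, was at 8.90, 9.22 and 8.81 and then 8.98, 8.33 and 8.17 (difference -0.48, adjusted p = 0.164), with overlapping groups.

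Of 9 nuclear regulators of mitochondrial biogenesis, 0 passed the test, with a median log2 difference of -0.36 as deposited and -0.11 after cyclic loess. At an unadjusted limma p under 0.05, 3 were lower (33.3%) and 0 higher. The share lower was 16.9% over all genes and 42.7% over the brightest 30%. Myc, an activator of ribosome and mitochondrial genes, was at 10.62, 11.07 and 10.60 in uninduced and 10.49, 10.41 and 10.09 in induced cells, without overlap (difference -0.43, limma adjusted p = 0.148). Yy1, whose motif was in 12 of the 62 promoter windows of the members, was at 10.29, 10.48 and 10.23 and then 10.32, 9.47 and 9.84, with induced A among the uninduced values (difference -0.46, adjusted p = 0.166).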
